A study of Canis lupus familiaris and Dasypus novemcinctus and Ornithorhynchus anatinus with 3 samples.

Results

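The dog library is a single messenger RNA sequencing library of the endometrium, the lining of the uterus, taken from Canis lupus familiaris in pregnancy. It is described here on its own, by how much RNA each gene contributed once gene length was allowed for. The members were all genes of the dog table that had 10 or more reads, ranked by the deposited length-scaled column, and they numbered 12366 of 19290 listed dog genes (64.1%) and of 50106 genes listed over the dog, armadillo and platypus tables of the series. Of the remaining dog genes, 2719 had 1 to 9 reads and 4205 (21.8%) were listed at 0. The labels give no breed, age, stage of pregnancy or number of animals, and nothing in them says whether placenta or muscle was removed. The library held 13625426 reads on its listed genes. With 1 library there is no replicate, no test was made, and each 95% interval below is an exact Poisson interval that covers counting error only. Fewer cells of a type and less RNA per cell cannot be told apart in such a bulk sample.

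The endometrium of a pregnant mammal is built of a surface and gland epithelium, a stroma of connective tissue cells, vessels and immune cells. Its glands secrete proteins and lipids that nourish the conceptus. In the dog the placenta forms a girdle around the conceptus, and fetal epithelium invades the lining as far as the maternal capillaries, so tissue taken at a placental site can hold both maternal and fetal epithelium.

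Levels are given in ppm, for which the length-scaled column was rescaled to sum to 1000000 over all listed genes. They compare genes per length, whereas a read count also grows with gene length. The median was 6.89 ppm over all 19290 listed genes and 28.6 ppm over the 12366 ranked ones. The top 10% of the ranking held 1236 genes and began at 169.9 ppm, which 6.41% of all listed genes reached. At the lower limit of the ranking, the 117 genes with 9 reads had a median of 0.746 ppm and the 104 genes with 10 reads a median of 0.880 ppm.

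The library was spread over many genes. The 10 highest genes took 5.53% of the summed abundance, the 100 highest 21.6% and the 1000 highest 54.2%. The 5 genes that had been proposed as its markers, DSP, CTSZ, ACLY, KRT7 and EPCAM, all lay in the top 10%. That is no test of them, since they may have been proposed with values of these data known. CTSZ, the lysosomal protease cathepsin Z (ENSCAFG00000012183), ranked 6th at 4910 ppm (95% interval 4871 to 4950) with 59932 reads. KRT7, a keratin of simple epithelia (ENSCAFG00000007322), ranked 38th at 2155 ppm (2131 to 2180) with 29770 reads. ACLY, which makes cytosolic acetyl-CoA for lipid synthesis (ENSCAFG00000015818), ranked 79th at 1150 ppm (1139 to 1161) with 41453 reads. DSP, the desmosome protein desmoplakin (ENSCAFG00000009570), ranked 115th at 827 ppm (821 to 833) although its 68185 reads were the highest count of any gene. EPCAM, an adhesion molecule of epithelia (ENSCAFG00000002653), ranked 800th at 235 ppm (225 to 245) with 2288 reads.

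**Figure D1:**
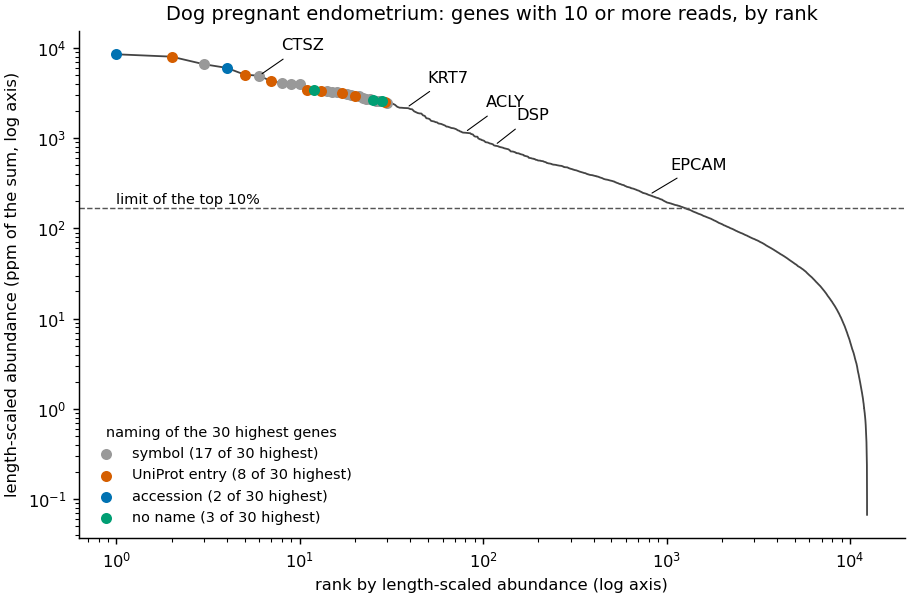
Length-scaled abundance (ppm, log axis) of the 12366 dog genes with 10 or more reads against their rank (log axis), with the 30 highest genes coloured by how the table names them. Of those 30, 17 carry a symbol. The 5 proposed markers are labelled and lie above the dashed limit of the top 10%, which is no test of them.

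The highest gene of all, at 8494 ppm (8415 to 8573) with 44397 reads, is named only by the transcript accession XM_843621.1 (ENSCAFG00000014024). It was followed by Q7M3A1_CANFA (ENSCAFG00000007893) at 7994 ppm, by HSBP1, which encodes a small protein that binds heat shock factor (ENSCAFG00000019973), at 6590 ppm, by XM_851963.1 (ENSCAFG00000014043) at 6003 ppm and by Q8SPL9_CANFA (ENSCAFG00000007319) at 5056 ppm. Below CTSZ came Q9N1Q2_CANFA at 4279 ppm and the ribosomal protein gene RPS16 at 4082 ppm. TMSB10 (thymosin beta 10, which binds actin monomers) stood at 3974 ppm and PFN1 (profilin, which does the same) at 3946 ppm. Lines named as ribosomal protein genes held 12 of the 30 highest places, and lines whose names give no protein could not be counted.

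Genes that symbol matching would leave out made up a sizeable part of the library. Of the listed genes, 1428 are named by a UniProt entry ending in _CANFA, 1347 by a sequence accession and 2783 by no name at all. UniProt-named genes were 7.40% of the listed genes but carried 11.9% of the reads and 11.6% of the length-scaled abundance. Accession-named genes carried 5.99% of the abundance and unnamed genes 5.89%. All genes without a symbol together, which also include 115 LOC numbers and 23 names turned into date numbers, carried 24.0% of the abundance and held 5 of the 10 and 13 of the 30 highest places.

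**Figure D2:**
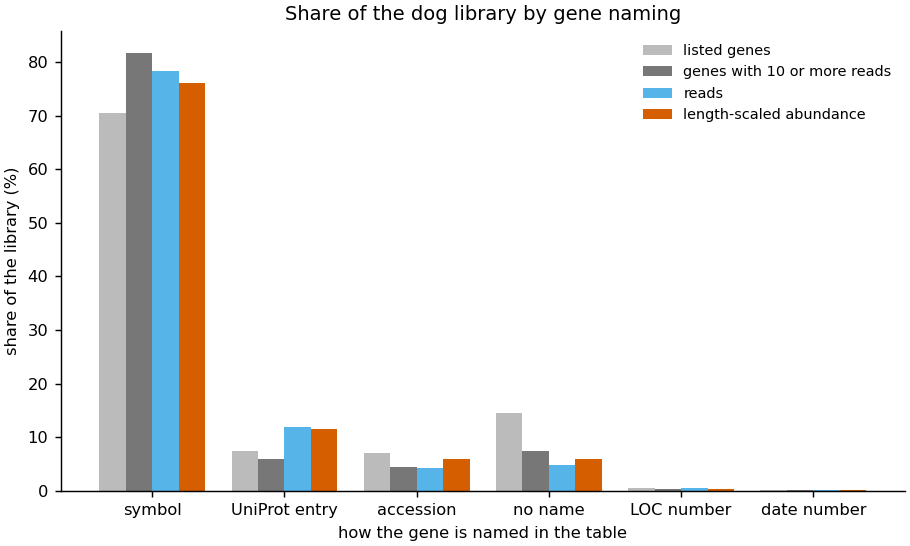
Share of listed genes, of genes with 10 or more reads, of reads and of length-scaled abundance (each in % of the dog library) for each way a gene is named. Bars start at 0, and the UniProt-named genes take a larger share of reads (11.9%) than of listed genes (7.40%).

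UniProt entry names come in 2 kinds. Curated entries carry a protein mnemonic (652 genes), whereas 776 genes carry an uncurated entry that shows only an accession and so does not name the protein. Of the 20 highest UniProt-named genes, those with a mnemonic were led by ANXA2_CANFA, the membrane-binding annexin A2 (ENSCAFG00000016686), at 3449 ppm (3417 to 3482) with 43787 reads and rank 11. The ribosomal proteins RS18_CANFA (3173 ppm) and RS17_CANFA (2085 ppm) came next. LEG3_CANFA, the sugar-binding protein galectin 3, stood at 1377 ppm. The glycolytic enzyme triosephosphate isomerase (TPIS_CANFA, 1208 ppm), the secreted chaperone clusterin (CLUS_CANFA, 1133 ppm), ubiquitin (UBIQ_CANFA, 1104 ppm on its highest line), and the endoplasmic reticulum chaperones calnexin (CALX_CANFA, 1044 ppm) and endoplasmin (ENPL_CANFA, 969 ppm) completed that group.

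Among accession-named genes, 82 of 1347 had a symbol in the dog RefSeq gene table (assembly UU_Cfam_GSD_1.0) by exact accession. Of the 15 highest, 2 were named this way. NP_001003350.1 is listed there as FLT3LG, a growth factor of blood cell precursors, and its line had 20002 reads and 1341 ppm (1323 to 1360). In RefSeq the ribosomal protein gene RPL13A, whose span holds snoRNA genes, lies directly next to FLT3LG, and its part in this count was not tested. NP_001012344.1 is AKR1C3, an aldo-keto reductase that converts steroids and prostaglandins, at 746 ppm (730 to 763) with 7638 reads. Its family member AKR1E2 stood at 1938 ppm with 24540 reads, and reads shared between such similar genes may be split in an uncertain way.

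A few gene names occurred on 2 lines with different gene identifiers, once as a symbol and once in another form, and symbol matching sees only the first. The lines were paired by name, and whether both are the same gene was not tested. There were 9 such pairs, and in 7 the second line had more than 10 times the reads, including CDC42 with only 1 and 11 reads. ANXA2 had 6 reads under its symbol and 43787 as ANXA2_CANFA. RAN, the GTPase of nuclear transport, had 68 and 6654 reads. HMGN2, a nucleosome-binding protein, was listed at 0 under its symbol and had 4297 reads as HMGN2_CANFA. RPS24 had 1 read under its symbol and 885 under LOC485132, which RefSeq lists as RPS24.

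Length scaling changed which genes lead. By reads the 10 highest genes had a median length of 1575 bases and by length-scaled abundance 632 bases, and 4 genes were in both sets. Among genes in the 200 highest of either ranking the 5 that lost most places were long. FAT1, an atypical cadherin of 13826 bases, fell from 198th to 3705th place, LAMA3, a laminin chain of epithelial basement membranes, from 190th to 2745th, and PLEC, the cytoskeletal linker plectin, from 108th to 2434th. CNOT1, a scaffold of the deadenylase complex, fell from 200th to 1953rd and TPR, a nuclear pore protein, from 181st to 1837th. The 5 genes that gained most had models of 90 to 260 bases. The unnamed ENSCAFG00000004661, of 138 bases and 753 reads, moved from 4272nd to 197th place. Q4GX48_CANFA, of 90 bases and 1048 reads, moved from 3260th to 73rd place, and ATP5EP2, whose symbol is that of an ATP synthase epsilon pseudogene, of 126 bases and 1686 reads, from 2002nd to 61st. C11orf31, of 260 bases, moved from 2179th to 173rd and the unnamed ENSCAFG00000023527, of 216 bases, from 2040th to 123rd. Such models are only a few times as long as the 34 bases counted per read.

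**Figure D3:**
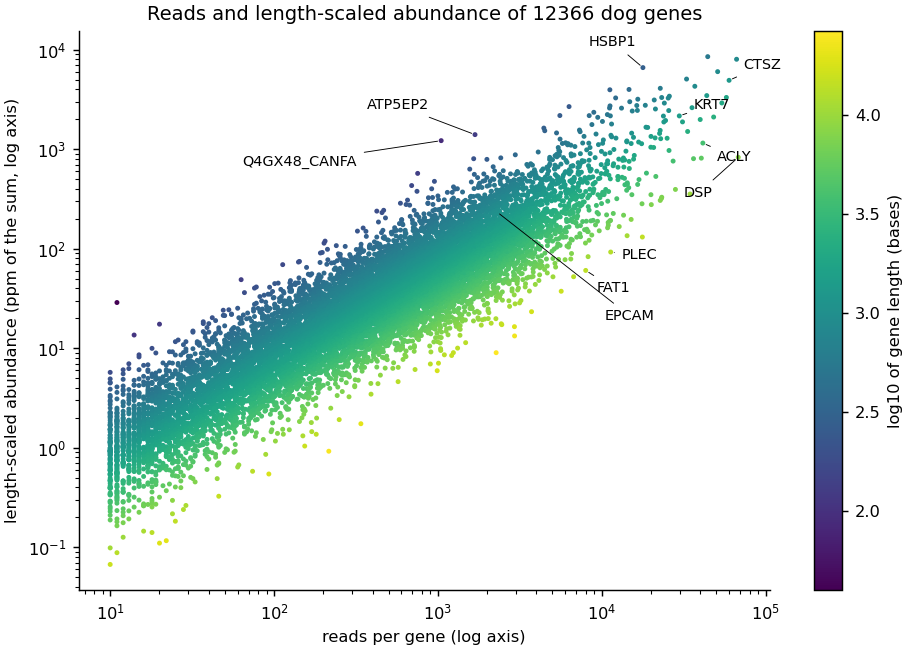
Reads per gene against length-scaled abundance (both log axes) for the 12366 ranked genes, coloured by gene length. At equal reads, long genes such as FAT1 and PLEC lie low and short models such as Q4GX48_CANFA and ATP5EP2 lie high.

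To describe the content by function, 27 gene lists with 638 entries in all were looked up by symbol or UniProt entry name, which found a line for 434 of the entries. The other 204 had no line under those names, which says nothing about their level. Because the lists name well-known genes, many of which are abundant in any tissue, they are read beside the lists of general cell functions: 14 of 18 translation genes, 23 of 27 respiratory chain genes and 3 of 7 housekeeping genes were in the top 10%, with medians of 479, 303 and 138 ppm. The share in the top 10% was 6.41% of all listed genes and 42.9% of the housekeeping list, so a share near the latter does not set a list apart.

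**Figure D4:**
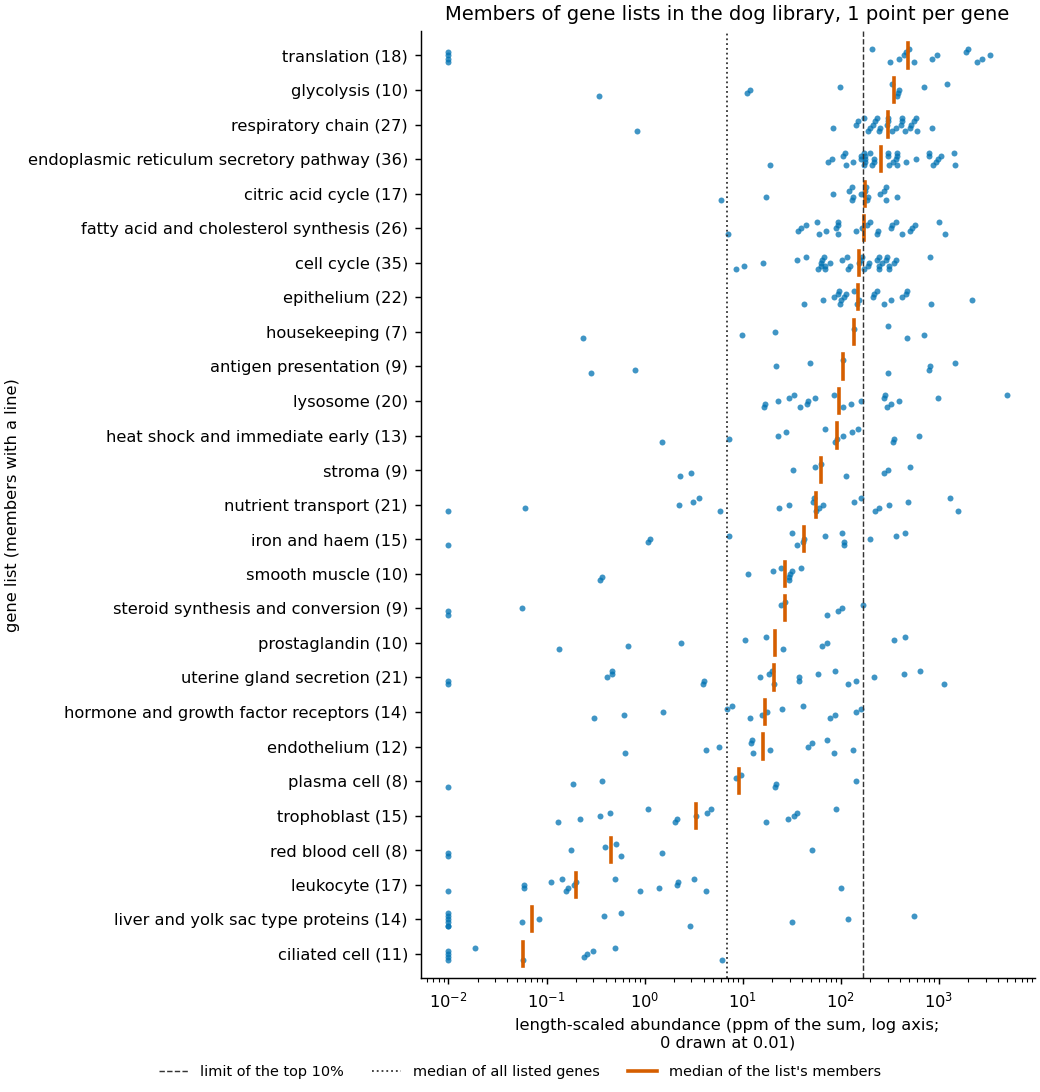
Length-scaled abundance (ppm, log axis) of each list member with a line, 1 point per gene, lists ordered by their median (orange bar), with genes listed at 0 drawn at 0.01 ppm. The highest medians are those of translation (479 ppm), glycolysis (351 ppm), the respiratory chain (303 ppm) and the secretory pathway (260 ppm). The housekeeping list (138 ppm) lies below fatty acid and cholesterol synthesis (174 ppm), cell cycle (152 ppm) and epithelium (150 ppm). Medians of the trophoblast, red blood cell, leukocyte, liver-type and ciliated cell lists lie below the dotted median of all listed genes.

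The route by which cells fold and export proteins was the most fully represented secretory feature. Proteins for export enter the endoplasmic reticulum through the SEC61 channel, receive sugars, fold with chaperones and move on to the Golgi. All 36 matched genes of this list had 10 or more reads, 27 (75.0%) were in the top 10% and the median was 260 ppm. The chaperone gene CALR (calreticulin) stood at 1446 ppm (1423 to 1469), P4HB (a protein disulfide isomerase) at 1436 ppm (1417 to 1455) and SSR4 (a subunit of the translocon-associated complex) at 941 ppm. The disulfide isomerases PDIA4 and PDIA3 stood at 864 and 793 ppm and HSPA5, the main chaperone of the compartment, at 793 ppm. The channel subunits S61A1_CANFA, SC61B_CANFA and SC61G_CANFA stood at 458, 377 and 207 ppm, and OST48_CANFA, a subunit of the enzyme that attaches N-linked sugars, at 586 ppm. The lowest were SSR3 at 74.3 ppm and the signal recognition particle gene SRP14_CANFA at 19.1 ppm. With symbols alone only 13 of these genes would have been found in the top 10%, because many dog proteins of this route are named by UniProt entry.

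Secreted products of uterine glands were uneven. Of the list's 33 genes, 21 were matched, 17 had 10 or more reads and 4 were in the top 10%, with a median of 20.8 ppm. The 4 were clusterin (CLUS_CANFA), IGFBP1, which binds insulin-like growth factors, at 638 ppm (620 to 655), NPC2_CANFA, a secreted cholesterol-binding protein, at 442 ppm (426 to 458), and GRN, the growth factor precursor progranulin, at 217 ppm (211 to 224). The protease inhibitors TIMP1_CANFA and CST6 stood at 144 and 88.0 ppm, WFDC2, a secreted epithelial protein, at 119 ppm, and ACP5, the iron-containing acid phosphatase also known as uteroferrin, at 58.5 ppm. At the other end, ENPP2 (autotaxin) had 14 reads, HGF 9 and STC2 4, and SCGB1A1 (uteroglobin) and TTR (transthyretin) were listed at 0. Relaxin, found as RELX_CANFA only by an entry name added after the values were seen, had 882 reads and 133 ppm (125 to 142). It is a peptide hormone that in dog pregnancy is made mainly by the placenta. Its receptor gene RXFP1 stood at 77.2 ppm (73.4 to 81.2) with 1546 reads.

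The lysosome list was led by CTSZ by a wide margin. Of 20 matched genes, 7 were in the top 10% and the median was 95.6 ppm, or 50.9 ppm over the 26 genes matched with the entry names added later. After CTSZ at 4910 ppm came the lysosomal membrane protein CD63 at 983 ppm and the proteases CTSH at 393 ppm and CTSB at 284 ppm, with the sphingolipid activator precursor PSAP at 328 ppm and the membrane protein LAMP1 at 296 ppm between them. The glycogen-degrading enzyme GAA stood at 33.1 ppm, and LIPA, the lysosomal acid lipase, and CTSF were lowest at 16.8 and 16.4 ppm. Among the added names, cathepsin D (CATD_CANFA) stood at 135 ppm and cathepsin L (CATL1_CANFA) was listed at 0.

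All 22 matched epithelial genes had 10 or more reads, against 64.1% of all listed genes. Of them 10 (45.5%) were in the top 10%, near the 42.9% of the housekeeping list and above the 6.41% of all listed genes. This count therefore does not set the list apart. The median was 150 ppm, against 138 ppm for the housekeeping list. A further 8 members, among them KRT8, KRT18, KRT19 and CDH1, had no line under those names. Below KRT7 and DSP came the tight junction claudins CLDN7 (477 ppm) and CLDN4 (461 ppm), PERP (424 ppm) and PKP2 (324 ppm), both of desmosomes. The tight junction scaffolds ZO2_CANFA, ZO3_CANFA and ZO1_CANFA stood at 137, 94.3 and 84.9 ppm. The epithelial regulators ELF3, GRHL2 and ESRP1 stood at 98.9, 65.6 and 41.8 ppm, and the last 2 were the lowest of the list.

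For stroma 3 of 9 matched genes were in the top 10%, SPARC at 505 ppm, fibronectin (FINC_CANFA) at 305 ppm and COL3A1 at 278 ppm. With the entry names added later the count was 5 of 13. These names brought in the type I collagen chains CO1A1_CANFA at 801 ppm (793 to 810) with 36352 reads and CO1A2_CANFA at 189 ppm. The activated fibroblast gene POSTN had 72 reads. No matched gene of smooth muscle (10), endothelium (12), leukocytes (17), plasma cells (8), red blood cells (8), ciliated cells (11) or trophoblast (15) was in the top 10%. With so few genes per list, counts of 0 are near the 6.41% of all listed genes, and the plasma cell count was 1 with a minimum of 1 read. For smooth muscle the members ranged from 0.351 ppm (CNN1, 3 reads) to 39.6 ppm (CALD1), with the myosin gene MYH11 at 0.369 ppm (22 reads). For endothelium they ranged from 0.636 ppm (CLDN5, 4 reads) to 133 ppm (EGFL7). For leukocytes 6 of 17 had 10 or more reads and the highest was S100A9, a calcium-binding protein of neutrophils, at 102 ppm, while PTPRC, the pan-leukocyte receptor CD45, had 53 reads and CD3E_CANFA of T cells was listed at 0. For plasma cells the highest was the proteoglycan SDC1, which epithelia also make, at 144 ppm, and for red blood cells EPB41, a membrane skeleton protein of many cells, at 50.5 ppm. For ciliated cells 2 of 11 had 10 or more reads, and the cilia regulator FOXJ1 had 6.

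Of the 15 matched trophoblast genes 11 had 10 or more reads, the median was 3.35 ppm, and the highest were GATA2 at 89.3 ppm and PGF, a placental growth factor of vessels, at 36.0 ppm. GATA3 stood at 17.3 ppm, TFAP2C at 2.13 ppm and ELF5 had 1 read. The share of epithelium that is fetal was not tested, and several epithelial genes, KRT7 included, are made by both uterine and placental epithelium.

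Some genes that build fatty acids and cholesterol were high. Acetyl-CoA made by ACLY is the common starting point of both routes, and SREBF2 is the transcription factor that governs the cholesterol branch. All 26 matched genes had 10 or more reads, 13 were in the top 10% and the median was 174 ppm. Behind ACLY stood SCD (991 ppm, 974 to 1009), which desaturates fatty acids, SREBF2 (574 ppm, 565 to 582) and INSIG1 (537 ppm), which restrains the same pathway. The squalene epoxidase SQLE stood at 336 ppm. ACACA, which makes malonyl-CoA, stood at 44.5 ppm, the desaturase FADS2 at 37.0 ppm, and ME1, a source of NADPH, lowest at 7.02 ppm. FASN, the fatty acid synthase, had no line under that name.

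Listed values of energy genes ranged from high to a few reads, and the lowest are given only as listed. Of 10 matched glycolysis genes 6 were in the top 10%, led by TPIS_CANFA at 1208 ppm and the glucose transporter SLC2A1 at 711 ppm (697 to 724), with HK1 at 393 ppm. The hexokinase isoform HK2 stood at 11.7 ppm and LDHB had 4 reads. Of 17 matched citric acid cycle genes 9 were in the top 10%, and PC (pyruvate carboxylase) was lowest at 6.08 ppm. The respiratory chain list was led by COX4I1 at 857 ppm and its lowest member was NDUFA4 with 2 reads. Many of its genes are short, and 15 of 27 rather than 23 were in the top 10% when genes were ranked by reads.

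Transport and iron genes covered a wide range of levels. Of 21 matched nutrient transport genes 6 were in the top 10%. FABP4, a fatty acid binding protein, stood at 1554 ppm (1518 to 1590) and SLC5A6, the sodium-dependent carrier of biotin and pantothenate, at 1285 ppm (1269 to 1301). The mitochondrial ADP/ATP carrier SLC25A5 (486 ppm) and the neutral amino acid carriers SLC1A4 (310 ppm) and SLC1A5 (221 ppm) followed, with the fatty acid binding protein FABP3 at 243 ppm between the last 2. The fatty acid receptor CD36 stood at 3.61 ppm, and SLC2A2 was listed at 0. Of 15 matched iron and haem genes 3 were in the top 10%. They were ALAS1, the first enzyme of haem synthesis, at 451 ppm, the transferrin receptor TFR1_CANFA at 364 ppm (357 to 372) and the iron importer SLC11A2 at 200 ppm. The ferritin chains FRIH_CANFA and FRIL_CANFA had 8 and 9 reads.

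All 35 matched genes of the cell cycle list had 10 or more reads, against 64.1% of all listed genes. In the top 10% were 15 (42.9%), the same share as in the housekeeping list, against 6.41% of all listed genes. This count therefore does not set the list apart. The median was 152 ppm, against 138 ppm for the housekeeping list. DNA synthesis genes led, with RRM2, a subunit of the enzyme that makes deoxynucleotides, at 821 ppm (804 to 838), thymidine kinase TK1 at 364 ppm (350 to 378), PCNA, the sliding clamp of DNA polymerase, at 345 ppm (333 to 357), and the replicative helicase subunits MCM7 and MCM5 at 312 and 307 ppm. Mitotic genes in the top 10% included CDC20 (288 ppm), CDK1 (246 ppm), UBE2C (245 ppm), PLK1 (192 ppm) and TOP2A (190 ppm). MKI67, the Ki-67 antigen, had 5458 reads but, at 7320 bases, 77.9 ppm. Among the D-type cyclins CCND3 stood at 295 ppm, CCND2 at 163 ppm and CCND1_CANFA at 10.4 ppm (8.34 to 12.8). The lowest member was CDKN3 at 8.50 ppm.

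Receptor, steroid and prostaglandin genes had list medians of 16.8, 26.8 and 21.4 ppm. These were above the 6.89 ppm median of all listed genes, which includes genes listed at 0, and below the 28.6 ppm median of ranked genes. With the names added later the steroid median was 35.5 ppm, above that of ranked genes. The prostaglandin median was then 13.9 ppm and the receptor median unchanged. Among list members with 10 or more reads, the median percentile in the ranking was 38.9, 77.3 and 47.4. None of 14 matched receptor genes was in the top 10%, a count near the 6.41% of all listed genes, and 1 was when genes were ranked by reads or with a minimum of 1 read. The membrane-associated progesterone-binding protein gene PGRMC1 stood at 161 ppm and the growth factor receptor ERBB2_CANFA at 143 ppm. The nuclear progesterone receptor PRGR_CANFA had 223 reads and 6.98 ppm, and the oestrogen receptor ESR1 112 reads and 7.82 ppm. Both were near the median of all listed genes but low among the 12366 ranked genes, at ranks 9624 and 9424. Of the steroid list none of 9 matched genes was in the top 10%, CYP11A1 and HSD17B2 were listed at 0 and HSD17B12, which also lengthens fatty acids, was highest at 169 ppm, just below the limit. The steroid count was 1 when genes were ranked by reads, with a minimum of 1 read, without genes under 300 bases, or with the names added later, which bring in AKR1C3. Of 10 matched prostaglandin genes 2 were in the top 10%. They were the co-chaperone PTGES3 at 456 ppm and PTGR1, which inactivates prostaglandins and leukotrienes, at 348 ppm. The terminal synthase PTGES_CANFA stood at 10.6 ppm. In the antigen presentation list, 4 of 9 matched genes were in the top 10%. Among them, CALR and PDIA3 also belong to the secretory pathway list, and B2M, the light chain of class I molecules, stood at 302 ppm. In the heat shock and immediate early list 3 of 13 were, namely HSPB1_CANFA at 630 ppm, HSP90AB1 at 351 ppm and ATF3 at 342 ppm, while FOS stood at 23.1 ppm and EGR1 at 7.32 ppm. Of 14 matched liver and yolk sac type genes only APOE_CANFA (555 ppm) was in the top 10%, and 8 had fewer than 10 reads.

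Low values in this table need care, because some genes that every cell uses were also low. Of 44 lines that name a cytosolic ribosomal protein gene, 31 were in the top 10% and together they took 6.07% of the abundance, yet 8 had fewer than 10 reads. RPS16 had 22784 reads and RPS3 23248, whereas RPS2 had 2, RPS24 had 1, and RPL11, RPL23, RPL7A, RPL37A and RPS21 were listed at 0. Of these, RPS24 and RPL23 each had a second line under another name, with 885 and 399 reads. The elongation factor gene EEF2 and the translation-associated gene TPT1 were also listed at 0, and PPIA, a prolyl isomerase, had 1 read. A gene listed at 0 or near it, such as the ferritin chains, CATL1_CANFA or HBB_CANFA (beta globin, 11 reads), is therefore given only as its listed value.

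**Figure D5:**
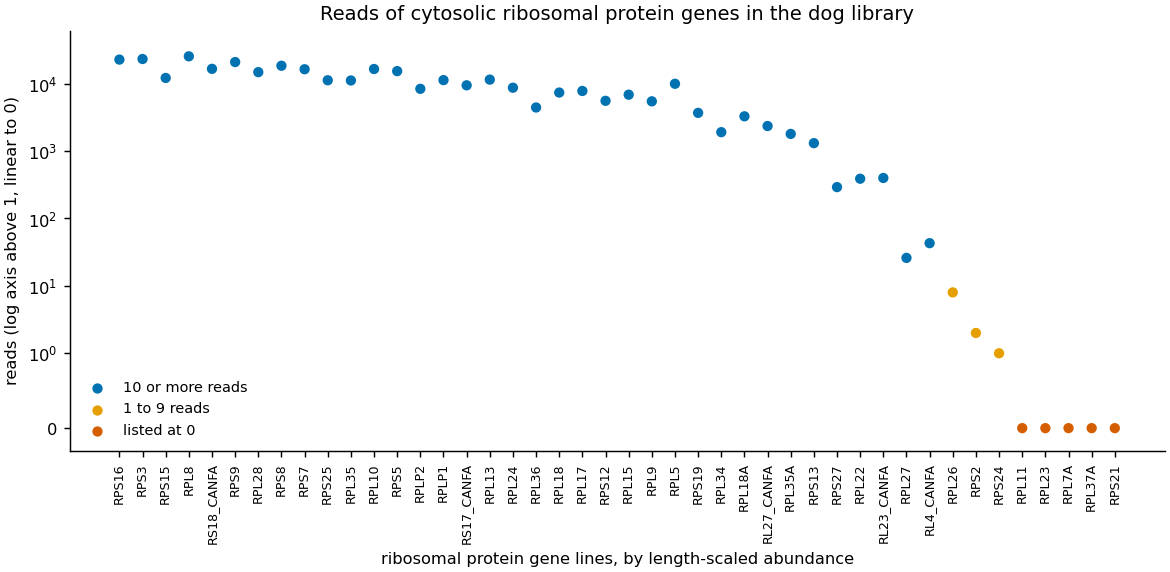
Reads (log axis above 1, linear to 0) of the 44 lines that name cytosolic ribosomal protein genes, ordered by length-scaled abundance. Of these lines 36 had 10 or more reads, 3 had 1 to 9 and 5 were listed at 0, within a set of proteins that all cells need.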

How the data were processed

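Messenger RNA of pregnant dog endometrium was measured in 1 library. Bowtie is named in the submitters' processing notes. Its version, the build and the gene models are not stated in the labels or headers used here. The estimated count of each gene, as deposited, is its mapped bases divided by 34. Of these, 516 were not whole and were rounded. The other deposited columns are scores: the mapped bases, and a relative level with no unit in the header. That level is proportional to reads per base, since scaling by a single fitted constant turned reads over level into lengths that were whole (tolerance 0.1 bases) for all 5644 genes above 500 reads. The fit was tested on simulated data. Read as a total of reads, the constant exceeds the listed reads, which are 61.7% of it. Of those lengths 59.0% were multiples of 3, so many models may lack untranslated parts. The counts the authors deposited for armadillo and platypus served only to count listed genes.

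Genes with 10 or more reads were ranked by the relative level, which was rescaled to ppm of its sum. The last line, a total, was left out. No build matching the table was used and no coordinates are given. Named genes were the 30 highest, the highest UniProt-named (20) and accession-named (15) genes, the 5 proposed markers, the 5 highest and 2 lowest ranked members of each list with those below 10 reads, and those that changed rank most. Other list members named in the text, and all genes of the closing section, were chosen after their values were seen. The members and lists were chosen with earlier results of these data known. Further UniProt names and RefSeq numbers were added after the values were seen. Alternatives were ranking by reads, minima of 1 and 50 reads, leaving out genes under 300 bases, matching by symbol only and the top 25% as the limit. Python 3.11.15, pandas 2.3.3 and scipy 1.17.1 were used. A few list members are not reported here.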

Additional observations from a re-analysis of the deposited data

How the results depend on the processing

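The share of the summed abundance in the 10 highest genes, 5.53%, was 3.93% of reads when genes were ranked by reads, 5.16% without genes under 300 bases and 5.07% with the highest gene left out. With symbols alone, 13 secretory pathway genes and 2 gland secretion genes were in the top 10%, since the others are named by UniProt entry. The top 25%, a wider limit by construction, held 20 epithelial, 11 lysosome, 7 gland secretion and 23 cell cycle genes. Under minima of 1 or 50 reads the counts for these lists, for fatty acid and cholesterol synthesis and for genes without a symbol among the 30 highest stayed within 1.5 times. No paired analysis was possible because there is 1 dog library, and for the same reason no replicate was left out. Depth limits low genes: for counting error alone, a count of 0 was allowed up to 3 reads, a set value, or 0.211 ppm at the median length of 1485 bases. Genes that every cell uses, such as EEF2 and RPL11, were also listed at 0, so this value does not bound the RNA of a gene listed at 0.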

Other observations

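The genes in this section were picked after their values were seen, and apart from BCAT1 they were named by no rule. Several high genes encode small signalling or transport proteins. NPPC, the precursor of C-type natriuretic peptide, stood at 1454 ppm (95% interval 1415 to 1494) with 5303 reads and rank 57, while NPR2, its receptor, had 132 reads. FXYD4, a small regulator of the sodium pump, stood at 2174 ppm (2117 to 2232) with rank 35, beside the pump's catalytic subunit AT1A1_CANFA at 443 ppm and the subunits ATP1B3 at 209 ppm and AT1B1_CANFA at 86.9 ppm. The calcium-binding gene S100P stood at 876 ppm. Models under 400 bases, such as those of NPPC (381), FXYD4 (267) and S100P (354), rank higher by length-scaled abundance than by reads, where they held places 403, 373 and 943.

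BCAT1, the cytosolic aminotransferase of branched-chain amino acids, ranked 26th at 2607 ppm (2580 to 2635) with 35594 reads, against 172 ppm for its mitochondrial counterpart BCAT2 and 241 ppm for IVD, which acts further down leucine breakdown. ARG2, mitochondrial arginase, stood at 919 ppm and PNP, which salvages purines, at 1290 ppm. MID1IP1, a protein that promotes the activity of acetyl-CoA carboxylase, stood at 1139 ppm.

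Developmental signalling genes with high levels were RSPO2, an enhancer of WNT signalling, at 673 ppm, WNT7B at 601 ppm and the epithelial transcription factor KLF5 at 420 ppm. The homeobox gene DLX5 stood at 277 ppm and MSX2_CANFA at 108 ppm, against 6.26 ppm for MSX1. PAX8_CANFA, a transcription factor of epithelia that derive from the Müllerian duct, stood at 78.8 ppm. Of the interferon-induced genes, ISG15 stood at 157 ppm, OAS1 at 66.6 ppm and MX1_CANFA at 40.4 ppm.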
